A study of Rattus norvegicus with 8 samples.

Results

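The 10 genes of calcium-binding proteins were followed in laser-captured spinal motoneurons of the rat, 4 arrays at postnatal day 1 (P1) against 4 at postnatal day 21 (P21). They are 3 cytosolic calcium buffers (Calb1, Calb2 and Pvalb), the NECAB proteins (Necab1 and Necab2) and the neuronal calcium sensors (Ncald, Hpcal1, Hpcal4, Vsnl1 and Ncs1). Every probe set whose single symbol in the platform annotation is one of these names was taken, which gave 19 of the 31042 probe sets. Of the 10 genes, 6 had over 1 probe set and 4 had 1.

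The rats were Wistar albino with no treatment named, aged 1 day, when motor axons are being myelinated, or 21 days, when myelination is complete. Each array held 1500 to 2000 cells cut from stained lumbar cord sections, with RNA from a pool of 4 rats, and 4 litters supplied animals to both ages. The RNA went through 2 rounds of amplification from the poly(A) tail, which favours the 3′ ends of transcripts. The sections were stained with cresyl violet, and the labels name no genetic or antibody marker for choosing the cells.

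Calcium buffers bind the ion and so shape how long and how far a calcium signal spreads. Neuronal calcium sensors carry EF-hand loops and a myristoyl tail. In many of them, though not all, the tail is exposed when calcium binds, which moves the protein to membranes. In the spinal cord the 3 buffers are best known as markers of interneuron classes and sensory axons, and most adult spinal motoneurons contain little calbindin or parvalbumin protein.

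Of 8 tested motoneuron markers, 2 rose, 2 fell and 4 had no call. Chat, which makes acetylcholine, had an intensity of 1377 ± 244 (SD, n = 4) at P1 and 3451 ± 450.0 at P21, and the vesicular acetylcholine transporter gene Slc18a3 read 4103 ± 644 and 3769 ± 1033. Isl1, a transcription factor of motoneurons and other neurons, fell from 789.8 ± 209 to 239.8 ± 84.4, above the filter level defined below on 1 of 4 P21 arrays, and Esrrg, a nuclear receptor gene, fell from 5277 ± 858 to 3714 ± 564. Markers of other cells were read at both ages. Of 14 markers of spinal interneurons fixed for this description, 10 could be tested, 6 fell and 1 rose. The 13 with a probe set, tested or not, were summed at the brightest probe set of each. That sum was 18754 to 19390 on the P1 arrays and 10118 to 13009 on the P21 arrays. Gad2, Slc6a5 and Lhx5 of that list lay under the filter level on all 8 arrays, Gad1 fell on its brighter probe set (998 ± 124 to 689 ± 183), while its other tested probe set had a change of 0.51 (adjusted p = 0.0844), and the GABA and glycine vesicle transporter gene Slc32a1 rose (712 ± 122 to 995 ± 193). The largest falls of the list, named after their values were seen, were in neuropeptide genes. Tac1 went from 972 ± 55.7 to 114 ± 24.0, Sst from 3537 ± 261 to 621 ± 353 and Penk from 3502 ± 496 to 1992 ± 440.4. Myelin, astrocyte, microglial and vessel lists had 8 of 9, 6 of 9, 4 of 6 and 6 of 9 tested genes higher at P21 and 0, 2, 0 and 0 lower. Among these, Mbp rose from 2002 ± 606 to 8289 ± 705, Gfap from 1368 ± 273 to 3960 ± 625, Lyz2 from 124 ± 92.9 to 2003 ± 872 and Col1a2 from 1091 ± 354 to 4197 ± 2917. Of the erythrocyte markers, 2 of 4 rose and 0 fell. What these cells contribute to the levels below was not tested, and in pooled cells fewer cells of a type and less RNA per cell cannot be told apart.

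Intensities are the authors' deposited linear values. Changes are log2 of P21 over P1 on log2(intensity + 16), given ± their standard error, and adjusted p-values are from limma over all 19155 probe sets that passed a filter on dim values. That filter asked for an intensity above the 40th percentile of the array, a level of 221 to 287, on at least 4 arrays. An adjusted p under 0.05 counted as a change. By this rule 38.3% of all tested probe sets changed, 20.8% upward and 17.4% downward, and in 38.0% the intensities of the ages did not overlap.

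Of the 19 probe sets, 8 fell (17.4% of all tested probe sets did), 2 rose (20.8% of all did), 5 were tested without passing and 4 were too dim to test. The falls came from 6 genes (Calb1, Necab2, Ncald, Hpcal1, Vsnl1 and Ncs1) and the rises from Calb2 and Ncs1, so that Ncs1 had calls in both directions. All 10 probe sets with a call had no overlap between the ages, where 38.3% of all tested probe sets had a call and 38.0% had no overlap. The median change of the tested probe sets was -0.45, against 0.07 over all tested probe sets. All 15 tested probe sets exceeded the filter level on all 4 P1 arrays and 5 did not exceed it on all 4 P21 arrays, so the filter could be passed through P1 alone.

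**Figure D1:**
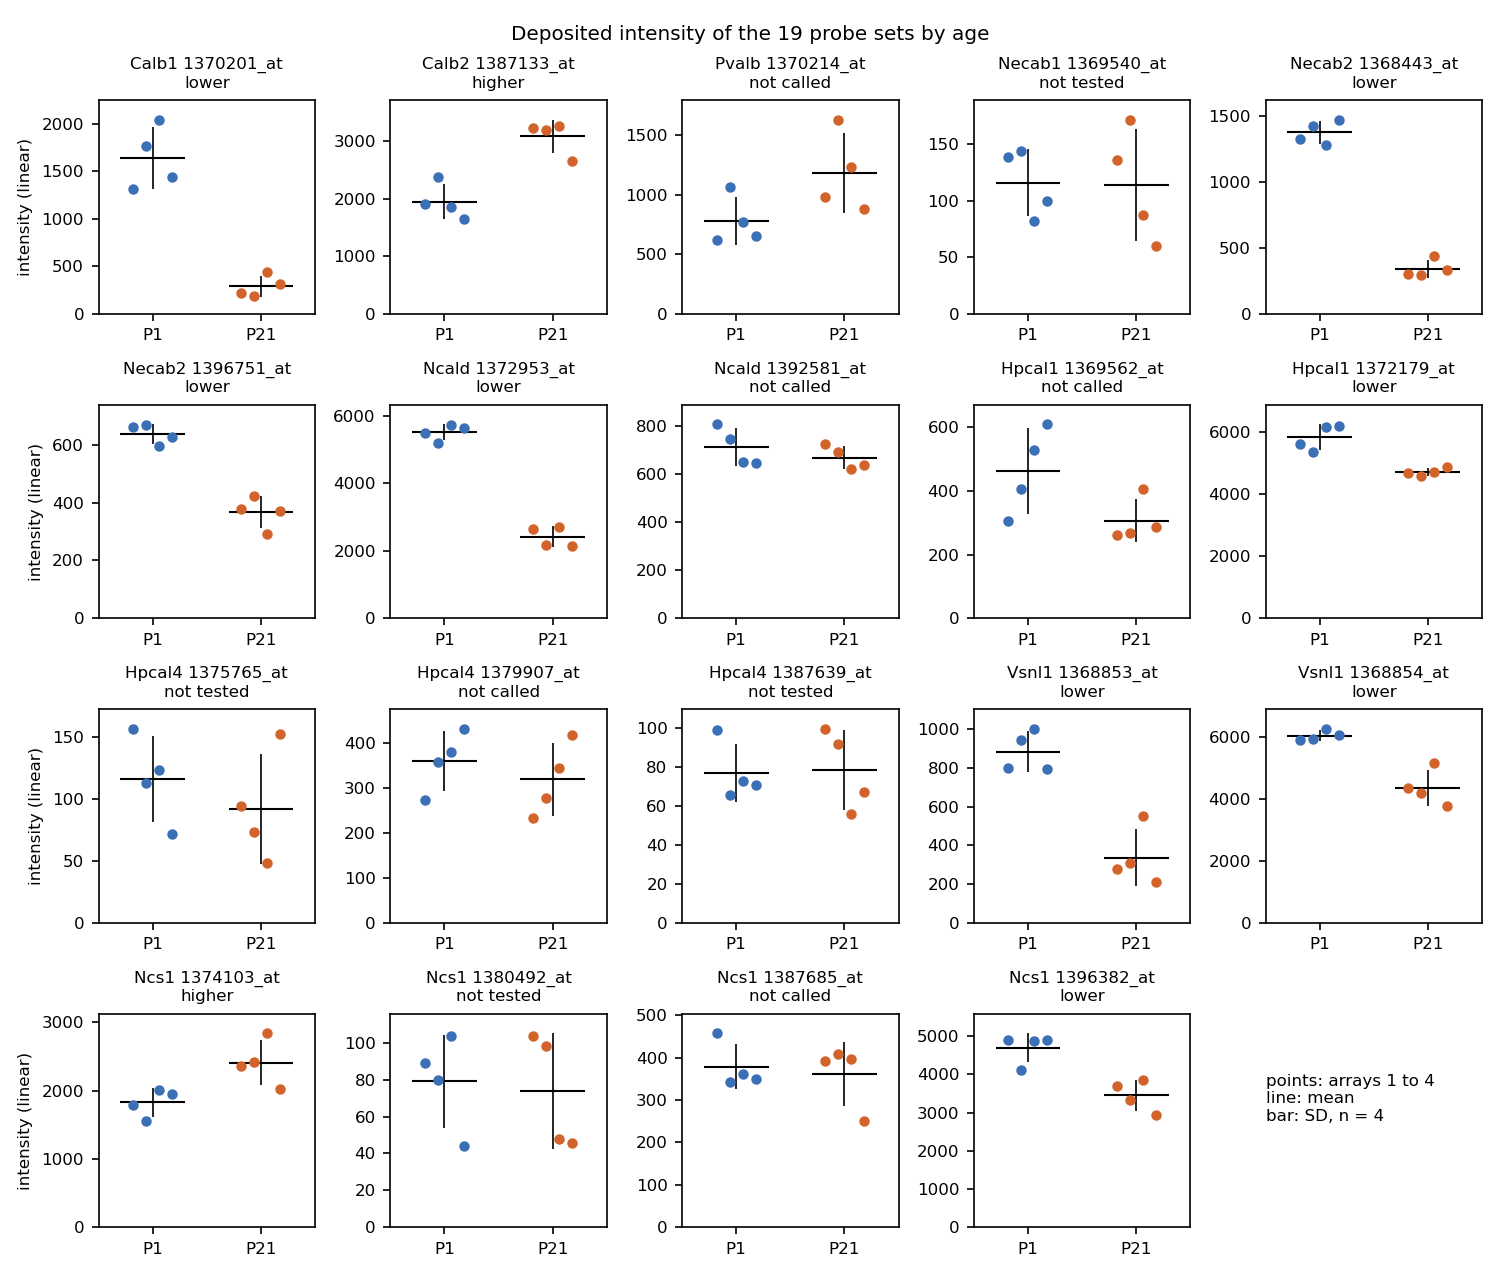
Deposited linear intensity of each of the 19 probe sets at P1 (blue) and P21 (orange), 1 point per array in the order of the replicate numbers, with the mean and SD of 4 arrays. Each axis starts at 0 and has its own scale; in the 10 panels headed higher or lower the points of the ages do not overlap.

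Promoter sequence was available for 6 of the 10 genes. Shown here are the 250 bases before the start site of Hpcal1, Vsnl1 and Necab2, and of Pvalb. The first 3 genes had a called fall and lower means at P21 on all tested probe sets. Pvalb had a higher mean at P21 without a call. The windows of Hpcal4, with a lower mean but no call, and of Ncs1, with calls in both directions, are not printed. They come from RefSeq on build GRCr8 and are written 5′ to 3′ on the gene's strand. Capitals mark matches, on either strand, to the GC box GGGCGG, the E box CANNTG and TGACG, the core of the cAMP response element, with 0 overlapping matches in these 4 windows.
Hpcal1 chr6:46206644-46206893, plus strand: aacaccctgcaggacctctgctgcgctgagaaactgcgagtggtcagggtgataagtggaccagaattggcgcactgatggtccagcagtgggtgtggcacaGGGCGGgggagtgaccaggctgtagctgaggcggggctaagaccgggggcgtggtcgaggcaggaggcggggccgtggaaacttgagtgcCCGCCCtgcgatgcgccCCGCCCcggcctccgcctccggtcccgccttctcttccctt
Vsnl1 chr6:39878557-39878806, minus strand: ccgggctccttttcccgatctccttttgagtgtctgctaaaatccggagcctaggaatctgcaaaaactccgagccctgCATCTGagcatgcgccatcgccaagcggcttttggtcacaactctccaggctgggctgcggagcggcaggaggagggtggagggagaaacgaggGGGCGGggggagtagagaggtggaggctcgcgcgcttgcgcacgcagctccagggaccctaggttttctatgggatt
Necab2 chr19:64409749-64409998, plus strand: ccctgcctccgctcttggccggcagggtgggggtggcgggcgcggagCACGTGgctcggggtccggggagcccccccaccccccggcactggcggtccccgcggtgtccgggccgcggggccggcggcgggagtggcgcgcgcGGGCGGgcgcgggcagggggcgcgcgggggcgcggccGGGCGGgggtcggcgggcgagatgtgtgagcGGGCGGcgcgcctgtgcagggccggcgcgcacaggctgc
Pvalb chr7:111666290-111666539, minus strand: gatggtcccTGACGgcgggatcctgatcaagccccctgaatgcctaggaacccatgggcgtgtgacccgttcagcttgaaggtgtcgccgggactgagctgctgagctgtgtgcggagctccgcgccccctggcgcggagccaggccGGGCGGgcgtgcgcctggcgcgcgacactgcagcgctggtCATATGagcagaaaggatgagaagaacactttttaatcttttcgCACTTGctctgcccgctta
The GC box occurred 3 times before Hpcal1, 3 times before Necab2, and 1 time each before Vsnl1 and Pvalb. It was present in 30.5% of the 33469 windows of the same length in the RefSeq table. The E box, found in 65.5% of all windows, had 0 matches before Hpcal1, 1 each before Vsnl1 and Necab2, and 2 before Pvalb. TGACG, present in 18.2% of all windows, matched 1 time before Pvalb and 0 times before the other 3 genes shown. The GC content of these windows was 67.2% for Hpcal1, 60.8% for Vsnl1, 85.6% for Necab2 and 62.8% for Pvalb, against a median of 51.2% over all windows. Of the windows not printed, that of Hpcal4 had 2 GC boxes, 2 E boxes and 0 TGACG matches. That of Ncs1 had 0 GC boxes, 1 E box and 1 TGACG match.

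Of the buffers, calbindin fell and calretinin rose. Calb1 (chromosome 5) encodes calbindin, a fast buffer that marks Renshaw cells, the recurrent inhibitory interneurons of the ventral horn. Its probe set 1370201_at read 1316.8, 1764.8, 2043.0 and 1444.1 on P1 arrays 1 to 4 and 215.8, 190.8, 441.5 and 312.4 on P21 arrays 1 to 4. Every P1 array was far above every P21 array, and on P21 arrays 1 and 2 the signal lay under the filter level. The fall was 5.61-fold (change -2.49 ± 0.25, adjusted p = 5.24e-05 by limma). Of the 10 tested interneuron markers, 6 fell on the same arrays, 1 rose and 3 had no call. The changes were -2.94 for Tac1 and -2.65 for Sst, the largest falls of that list, and 0.47 for Slc32a1, which rose. Pax2 (-0.11) and the dim Chrna2 (-0.15) had no call. The part of interneuron markers in the Calb1 fall was not tested.

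Calb2 (chromosome 19) encodes calretinin, the closest relative of calbindin among these proteins. Its probe set 1387133_at read 1904.1, 2371.5, 1860.3 and 1648.5 at P1 and 3225.7, 3191.7, 3266.0 and 2648.7 at P21. The lowest P21 array stood above the highest P1 array, and the rise was 1.59-fold (change 0.67 ± 0.13, adjusted p = 0.00267 by limma).

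Pvalb (chromosome 7) encodes parvalbumin, a slow buffer of fast-firing interneurons and of muscle proprioceptor axons, some of which end on motoneurons. Its probe set 1370214_at read 622.8, 1062.2, 774.2 and 652.4 at P1 and 980.2, 1630.7, 1236.6 and 883.7 at P21. The ages overlapped, since P1 array 2 was above P21 arrays 1 and 4, and the change of 0.59 ± 0.22 did not pass (adjusted p = 0.0599 by limma). Same-numbered arrays, however, had P21 over P1 ratios of 1.57, 1.54, 1.60 and 1.35 for numbers 1 to 4. With the replicate number as a block the same change had an adjusted p of 0.00180 and a standard error of 0.08.

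The changes within the buffer family were set against each other on the same arrays by an exact two-sided permutation test over the 70 splits of 8 arrays. In all, 6 pairs of these genes were compared and adjusted together. Calb1 changed by -3.15 ± 0.31 relative to Calb2 and by -3.07 ± 0.39 relative to Pvalb. In both pairs the within-array differences did not overlap between ages and the exact p was 0.0286, the smallest this design can give, which became 0.0571 after adjustment and so missed the threshold. Calb2 and Pvalb differed by 0.08 ± 0.19 (exact p = 0.686), less than its standard error.

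The NECAB genes encode neuronal proteins with EF-hands at one end and an enzyme-like domain at the other, and mark classes of dorsal horn and other neurons. Necab2 (chromosome 19), whose protein binds adenosine and metabotropic glutamate receptors, fell on both of its probe sets. Probe set 1368443_at read 1325.7, 1424.5, 1283.4 and 1473.6 at P1 and 299.5, 298.2, 439.4 and 331.0 at P21, a 3.93-fold fall (change -1.97 ± 0.13, adjusted p = 4.66e-06 by limma). All 4 P21 values exceeded the filter level, arrays 1 and 2 narrowly, while array 3 stood well above its own level of 263. Probe set 1396751_at went from 637 ± 33.6 to 366 ± 54.8, again with no overlap (change -0.78 ± 0.12, adjusted p = 6.61e-04 by limma). Both fell, but by different amounts.

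Necab1 (chromosome 5) was not detectable above the filter level on any array. Its only probe set read 82.4 to 143.5 at P1 and 60.2 to 171.4 at P21 and was not tested, and without the filter its change was -0.08 (adjusted p = 0.878 by limma). The pair Necab1 and Necab2 could not be compared for that reason.

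Among the sensors, the probe set of highest mean fell for Ncald, Hpcal1, Vsnl1 and Ncs1 and had no call for Hpcal4, where 17.4% of all genes fell at 1 probe set each, and another Ncs1 probe set rose. Ncald (chromosome 7) encodes neurocalcin delta, a sensor that binds clathrin and tubulin. Probe set 1372953_at read 5478.7, 5202.8, 5731.9 and 5642.1 at P1 and 2646.6, 2159.9, 2709.6 and 2142.4 at P21. The groups lay far apart, and the fall was 2.29-fold (change -1.19 ± 0.11, adjusted p = 2.82e-05 by limma). The other probe set of the gene, 1392581_at, read 713 ± 78.3 and 669 ± 48.8 with overlapping arrays (change -0.09 ± 0.11, 95% interval -0.32 to 0.15, adjusted p = 0.553 by limma).

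The visinin-like proteins are encoded by Vsnl1 (VILIP-1), Hpcal1 (VILIP-3) and Hpcal4 (VILIP-2), and VILIP-1 is known for its effects on cyclic nucleotide signalling and receptor traffic. Vsnl1 (chromosome 6) fell on both probe sets. Probe set 1368854_at read 5917.0, 5928.2, 6273.3 and 6075.6 at P1 and 4369.5, 4183.9, 5156.4 and 3764.7 at P21 (change -0.48 ± 0.11, adjusted p = 0.00642 by limma). The 4 P1 arrays lay close together and all above the P21 arrays. Probe set 1368853_at fell 2.69-fold, from 883 ± 105 to 337 ± 149 (change -1.43 ± 0.24, adjusted p = 0.00139 by limma), with P21 array 4 under the filter level.

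Hpcal1 (chromosome 6) changed little in size. Probe set 1372179_at read 5609.2, 5363.1, 6164.8 and 6192.3 at P1 and 4661.3, 4587.8, 4698.8 and 4869.3 at P21. The ages did not overlap, yet the fall was only 1.24-fold (change -0.31 ± 0.09, adjusted p = 0.0196 by limma), and the call was lost without P1 array 3 (adjusted p = 0.0614) or P1 array 4 (0.0643). Probe set 1369562_at read 307.0, 406.3, 529.9 and 610.3 at P1 and 263.1, 269.5, 406.6 and 286.4 at P21. Its signal lay under the filter level on P21 arrays 1 and 2. Its arrays overlapped and it did not pass (change -0.55 ± 0.21, adjusted p = 0.0707 by limma), while each P21 array was below the P1 array of the same number and the adjusted p with the replicate block was 0.0228. It also passed without P1 array 1 (0.0173) or P21 array 3 (0.0352).

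Hpcal4 (chromosome 5) had no call on any probe set. Probe set 1379907_at read 272.7, 358.0, 381.5 and 432.5 at P1 and 234.2, 278.5, 345.6 and 419.3 at P21, with wide overlap (change -0.18 ± 0.19, 95% interval -0.61 to 0.24, adjusted p = 0.482 by limma). The interval includes changes as large as that of Hpcal1. Each P21 array was below the P1 array of the same number, and with the replicate block the adjusted p was 0.117. Its other probe sets, 1375765_at and 1387639_at, lay under the filter level on all arrays, at 47.9 to 156.4 and 55.8 to 99.5. In the paired comparisons Hpcal1 differed from Hpcal4 by -0.12 ± 0.19 (exact p = 0.543) and Vsnl1 from Hpcal4 by -0.29 ± 0.25 (exact p = 0.314). Ncald fell by 0.89 more than Hpcal1 on the log2 scale, with no overlap between the ages (exact p = 0.0286, adjusted p = 0.0571).

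**Figure D2:**
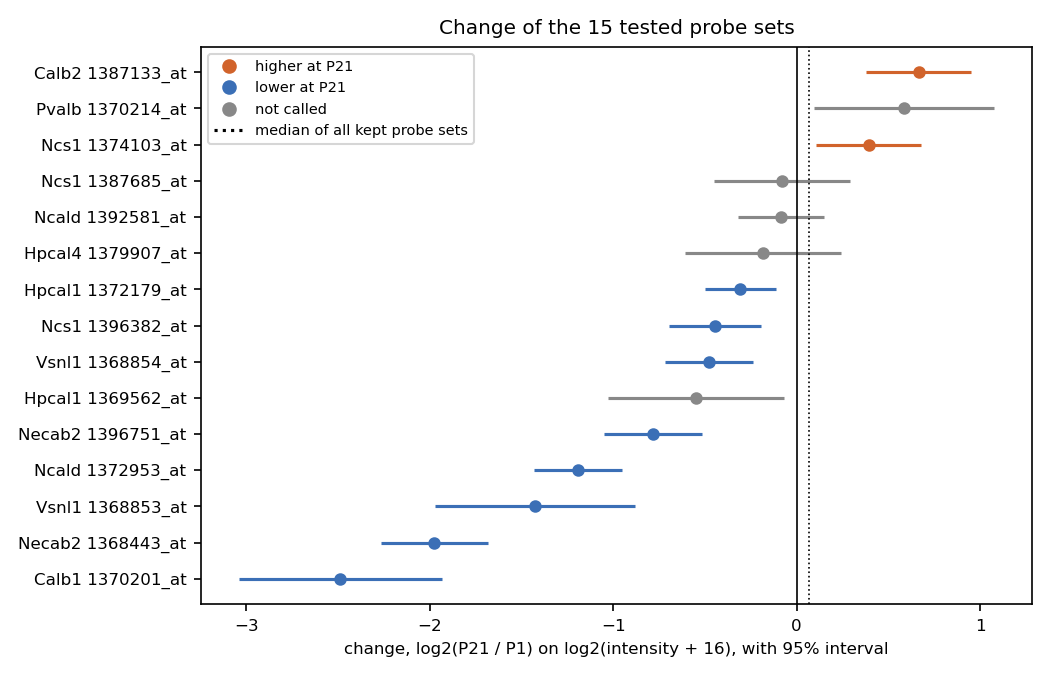
Change between ages, log2 of P21 over P1, of the 15 tested probe sets, with the 95% interval from limma; blue and orange mark an adjusted p under 0.05. The changes run from -2.49 for Calb1 to 0.67 for Calb2, and the dotted line is the median of all tested probe sets, 0.07.

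Ncs1 (chromosome 3) encodes neuronal calcium sensor 1, or frequenin, a regulator of transmitter release and of phosphatidylinositol 4-kinase. Its probe sets disagreed. Probe set 1396382_at read 4898.4, 4126.0, 4867.6 and 4896.6 at P1 and 3689.3, 3325.2, 3847.4 and 2947.2 at P21, a 1.36-fold fall with no overlap (change -0.45 ± 0.11, adjusted p = 0.0114 by limma). Probe set 1374103_at read 1786.5, 1553.6, 2015.7 and 1958.2 at P1 and 2356.3, 2419.9, 2842.5 and 2030.6 at P21, a 1.31-fold rise (change 0.39 ± 0.13, adjusted p = 0.0351 by limma). Its highest P1 array and lowest P21 array nearly touched. That rise was not stable, with an adjusted p of 0.266 when arrays were centred on their medians, 0.0696 without the filter, and 0.0513 to 0.0851 without P1 array 1, 2 or 4 or P21 array 1, 2 or 3.

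The third tested probe set of Ncs1, 1387685_at, read 378 ± 53.3 and 361 ± 74.8 and did not pass (change -0.08 ± 0.17, adjusted p = 0.737 by limma), and 1380492_at lay under the filter level on all arrays. Averaging the 3 tested probe sets left a change of -0.04 (adjusted p = 0.806 by limma). No direction can be given for the gene as a whole. Among all genes with at least 2 called probe sets, 66 of 614 (10.7%) had calls in both directions.

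**Figure D3:**
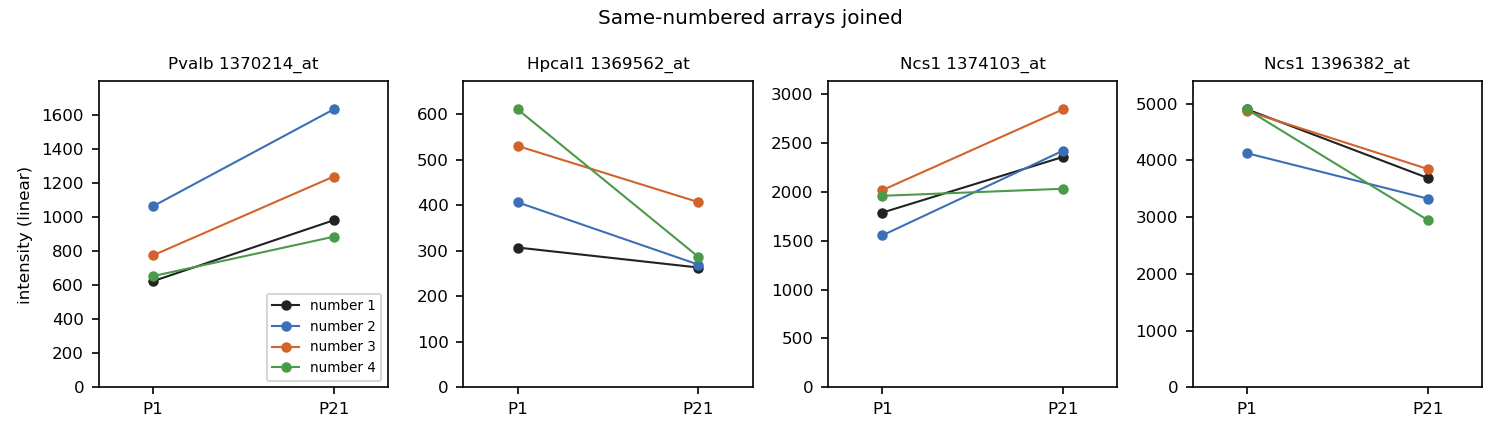
Linear intensity at P1 and P21 with arrays of the same replicate number joined, for Pvalb, the dimmer Hpcal1 probe set and the oppositely called Ncs1 probe sets. All 4 lines rise for Pvalb and for Ncs1 1374103_at and all 4 fall for Hpcal1 1369562_at and Ncs1 1396382_at.

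Unequal change of probe sets within a gene was measured for the 5 genes with over 1 tested probe set, a comparison chosen after their values were seen. Of 7 pairs of probe sets, 5 had the smallest p that the exact permutation test can give here (exact p = 0.0286, adjusted p = 0.0400 over the 7). Because of that choice these p-values only describe the pairs. The difference in change was -1.19 for Necab2, -1.11 for Ncald, -0.95 for Vsnl1 and 0.84 between the oppositely called probe sets of Ncs1, and the rise of 1374103_at also exceeded the change of 1387685_at, by 0.47. The probe sets of Hpcal1 differed by -0.24 (adjusted p = 0.371). The probe sequences and their places in the transcripts were not analysed here.

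For each gene with a call on its brightest probe set, the gene most like it was found by the root mean square difference between log2 profiles over the 8 arrays, each centred on its own mean. This was Bex1 for Calb1 (0.18), Iftap for Calb2 (0.10), Rab15 for Necab2 (0.09), Apba1 for Ncald (0.08), Mllt11 for Hpcal1 (0.04), Sncb for Vsnl1 (0.04) and Rab6b for Ncs1 (0.05). None of these nearest genes was among the 10, which are few beside the 10961 genes searched at 1 probe set each. Most of each profile is the difference between the ages.

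Related calcium-binding genes moved in both directions. In a list of other EF-hand sensors and buffers, 9 of 24 tested genes rose and 5 fell, while 10 had no call, and the median change was 0.24. Sri, without a call on its brightest probe set, fell on its other tested probe set (-0.49 ± 0.16, adjusted p = 0.0387 by limma). Over all 10961 genes, at 1 probe set each, 22.0% rose and 17.4% fell, with a median of 0.05. The largest rises were of S100a4 (2.65 ± 0.22), S100a6 (2.42 ± 0.15) and Necab3 (1.51 ± 0.09), the third NECAB gene, which went from 793 ± 29.5 to 2290 ± 208. The largest falls were of S100a11 (-2.28 ± 0.22), the sensor gene Hpca (-1.87 ± 0.13) and the potassium channel partner Kcnip1 (-1.04 ± 0.12). Hpca encodes hippocalcin, a close relative of the visinin-like proteins, and went from 3097 ± 384 to 833 ± 110. S100 proteins are abundant in glia and other non-neuronal cells. Most tested markers of glia and vessels rose on the same arrays, while the astrocyte markers Slc1a3 (-1.35) and Fabp7 (-1.21) fell. The part of those cells in these values was not tested.

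Calmodulin, the general calcium sensor, and its effectors had 4 of 21 tested genes higher, 4 lower and 13 without a call (median -0.07), beside 6644 of all 10961 genes without a call. Calm2 read 8692 ± 122 and 8270 ± 230.1 (change -0.07 ± 0.08, adjusted p = 0.496 by limma). The rises were led by Pcp4l1 (3.56 ± 0.33), by the calmodulin regulator gene Pcp4 (0.73 ± 0.11) and by the kinase kinase gene Camkk1 (0.87 ± 0.08). The falls were led by the calmodulin kinase gene Camk4, at least 2.23-fold with all 4 P21 arrays under the filter level, Camkv (1443 ± 49.5 to 719 ± 93.5) and Camk1 (-0.62 ± 0.13). Of 14 calcium-binding proteins of the endoplasmic reticulum, at 1 probe set each, 0 rose, 3 fell and 11 did not pass (median -0.06). The 3 were Nucb1 (-0.52 ± 0.12), Rcn1 (-0.45 ± 0.13), whose other tested probe set had a change of 0.05 and no call, and Nucb2 (-0.33 ± 0.09).

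**Figure D4:**
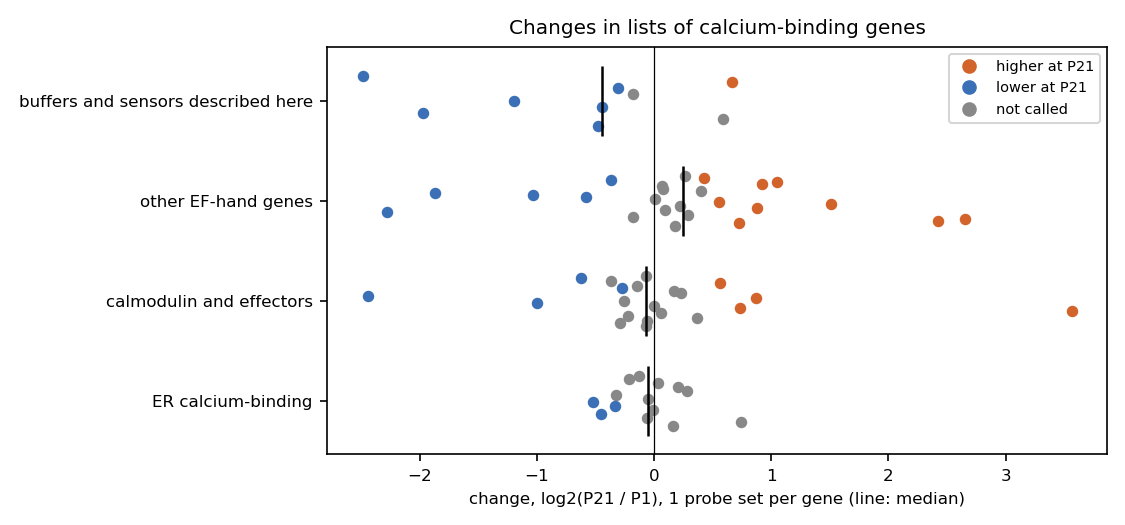
Change between ages, log2 of P21 over P1, of each tested gene in 4 lists of calcium-binding genes, 1 probe set per gene, coloured by the limma call, with a line at each median. The medians are -0.45 for the buffers and sensors described here, 0.24 for other EF-hand genes, -0.07 for calmodulin and its effectors and -0.06 for endoplasmic reticulum proteins.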

How the data were processed

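Rat motoneuron RNA was measured on 8 Affymetrix RAE230 2.0 arrays. The table deposited by the authors holds linear intensity values of 31042 probe sets, 66 to 250 of them per array below 0. The sources used here do not give the probe summary, background correction or scaling. The number of arrays limits the precision, and depth is not defined. Groups and replicate numbers came from the sample titles. Symbols came from the platform annotation, checked by gene identifier against the GRCr8 gene table, where all 10 genes were found.

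Negative values became 0, and log2(intensity + 16) went into limma 3.58.1 in R 4.3.3, P21 against P1, no covariate, Benjamini-Hochberg over 19155 kept probe sets. The step was tested on simulated data. Lists use the kept probe set of highest mean per gene. Exact permutation tests used scipy 1.17.1. "At least" folds set the brighter mean against the filter level.

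Replicate numbers are shared by the ages. Arrays with the same number deviated together from their age means (correlations of 0.514, 0.321, 0.558 and 0.15 for numbers 1 to 4 across kept probe sets), which met the criterion for pairing, every one above 0.1. Different numbers gave -0.458 to 0.366, and P1 array 4 correlated better with P21 array 3 (0.366) than with its own number. The reported calls and exact tests treat the arrays as unpaired, and the replicate block is an alternative. The design divided litters between the ages, but no label ties a number to a litter.

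All genes and lists were chosen with earlier results of these data known. The rule named every probe set of the 10 genes, the 3 largest called rises and falls of each other list, and fixed cell markers. Isl1, Esrrg, Tac1, Sst, Penk, Chrna2, Pax2 and Calm2 were added after their values were seen. Alternatives were another pseudocount, filter or scaling, the replicate block, each array left out, and gene means.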

Additional observations from a re-analysis of the deposited data

Results flagged for a closer look

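Of 30 sets of 4 arrays, 1 for each tested probe set at each age, 5 held an array far from the other three by Dixon's criterion, which chance meets in about 1 of 20 sets. Calb2 read 2648.7 on P21 array 4, below the 3192 to 3266 of the other P21 arrays, and its rise kept its call without that array. The dimmer Hpcal1 probe set read 406.6 on P21 array 3, above the 263 to 286 of the others, and passed the test without it. For Ncs1, probe set 1387685_at read 457.4 on P1 array 1, against 344 to 362, and 249.9 on P21 array 4, against 391 to 409, and had no call without either array. Ncs1 probe set 1396382_at read 4126.0 on P1 array 2, below the 4868 to 4898 of the other P1 arrays, and its fall kept its call without it.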

How the results depend on the processing

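Each tested probe set was refitted under up to 15 alternatives, and 11 of the 15 kept their side of the threshold in all that could be run, while 4 (Pvalb, both Hpcal1 and the rising Ncs1 probe set) crossed it in some. No called change turned, but the uncalled Ncs1 probe set 1387685_at ran from -0.22 to 0.08. Probe sets too dim for the 60th percentile filter have no value there. The count of falls stayed at 8 or 9 under other pseudocounts, filters, scalings and the block, and at 7 to 9 without any one array. The count of rises was 2. It was 3 with the replicate block or the 60th percentile filter (Pvalb added), 1 without the filter or with arrays centred on their medians (Ncs1 lost), and 1 to 3 without any one array. Pvalb passed without P1 array 2 (adjusted p = 0.0200) or P21 array 4 (0.0369). Its adjusted p was 0.0497 with the 60th percentile filter, and the dimmer Hpcal1 probe set passed on centring (0.0407). With the replicate block, limma called 8805 of all probe sets against 7329, and no call among the tested probe sets of the 10 genes was lost. Centring moved the median of all tested probe sets from 0.07 to -0.07. Averaging probe sets kept the calls of Necab2, Ncald, Hpcal1 and Vsnl1 and lost that of Ncs1 (adjusted p = 0.806). No pair of genes passed after adjustment under any setting (0 of 6, 3 at an unadjusted p under 0.05), and without an array a pair cannot reach the threshold. The other calcium-binding lists held 25 called genes, 22 to 29 under the other settings and 20 to 26 without any one array. The cause of these shifts was not tested. Dim signal limits Necab1, Hpcal4 and the P21 levels of Calb1 and of the dimmer Hpcal1 probe set.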

Other observations

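P21 array 3 read highest of the P21 arrays on 6 of the 8 probe sets that fell, those of Calb1, Ncald, Vsnl1 (both), the brighter Necab2 probe set and the Ncs1 probe set that fell. Over all 3339 probe sets that fell, the same array was highest in 45.8%. Without it, all 8 still passed the test.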
